A study of Mus musculus with 24 samples.

Results

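The 10 genes described here encode factors of nonhomologous end joining (NHEJ), *Xrcc5*, *Xrcc6*, *Prkdc*, *Dclre1c*, *Poll*, *Polm*, *Xrcc4*, *Lig4*, *Nhej1* and *Trp53bp1*. They were picked by symbol from the 21671 genes measured, and all 10 were found in every sample. RNA-seq was performed on spleens of mice of 8 weeks of age, either mock-treated or taken 4 h after whole-body ionizing radiation (IR) at 7 Gy. B cells were captured with B220 magnetic beads, and non-B cells are what passed through the column after lysis of red cells, a T cell-enriched mixture. Each of the 2 cell types and 2 treatments was profiled in 4 *Trp53*+/+ and 2 *Trp53*-/- samples, 24 in all. The *Trp53*-/- animals were constitutive knockouts on a C57/Bl6 background, so that every cell of the animal lacked p53. The labels do not say whether B and non-B samples of one number came from the same mouse.

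NHEJ rejoins the ends of a DNA double-strand break directly, without a template. The Ku heterodimer, Ku80 (*Xrcc5*) with Ku70 (*Xrcc6*), encircles the broken end and recruits the catalytic subunit of the DNA-dependent protein kinase (*Prkdc*). The nuclease Artemis (*Dclre1c*) trims ends and opens hairpins, the polymerases lambda (*Poll*) and mu (*Polm*) fill gaps, and DNA ligase IV (*Lig4*) seals the break together with *Xrcc4* and XLF (*Nhej1*). 53BP1 (*Trp53bp1*) binds the chromatin around the break and shields the ends from resection. Lymphocytes rely on this machinery during V(D)J recombination, and B cells again during class switching.

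In the NCBIM37 assembly, which mm9 represents, *Xrcc5* spans chromosome 1 from 72353995 to 72441526 on the plus strand, and *Xrcc6* spans chromosome 15 from 81818265 to 81870515 on the plus strand. *Prkdc* lies on chromosome 16 (15637959 to 15842332, plus), *Dclre1c* on chromosome 2 (3341403 to 3381402, plus), *Poll* on chromosome 19 (45626765 to 45635021, minus) and *Polm* on chromosome 11 (5727863 to 5738019, minus). *Xrcc4* lies on chromosome 13 (89913632 to 90229213, minus), *Lig4* on chromosome 8 (9970020 to 9977686, minus), *Nhej1* on chromosome 1 (75013713 to 75093213, minus) and *Trp53bp1* on chromosome 2 (121019017 to 121097143, minus). *Dclre1c*, *Xrcc4* and *Trp53bp1* overlap a gene on the other strand, *Suv39h2*, *Tmem167* and *Tubgcp4* respectively. The library kit does not mark strand, so reads in these overlaps cannot be told apart.

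The sequences upstream of 3 starts are shown because the response of these genes to IR differed between B and non-B cells (given with its test after the values). They are the 250 bases before the start, 5′ to 3′ in the direction of transcription, from RefSeq on GRCm38.p6, a later build than that of the files. RefSeq promoters were matched for 8 of the 10 genes, in 9 entries. The windows lie at chr1:72307171-72307420 (*Xrcc5*), chr15:82016119-82016368 (*Xrcc6*) and chr2:3423881-3424130 (*Dclre1c*), all on the plus strand. Capitals mark the E-box CACGTG in *Xrcc5*, the GC box GGGCGG in *Xrcc6*, and in *Dclre1c* the CCAAT box and the GC box, both of them read there on the opposite strand as ATTGG and CCGCCC.
Xrcc5: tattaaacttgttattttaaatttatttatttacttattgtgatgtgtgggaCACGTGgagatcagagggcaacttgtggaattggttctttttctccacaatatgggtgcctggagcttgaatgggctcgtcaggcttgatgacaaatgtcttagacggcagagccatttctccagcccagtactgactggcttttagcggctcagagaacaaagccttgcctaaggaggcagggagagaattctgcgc
Xrcc6: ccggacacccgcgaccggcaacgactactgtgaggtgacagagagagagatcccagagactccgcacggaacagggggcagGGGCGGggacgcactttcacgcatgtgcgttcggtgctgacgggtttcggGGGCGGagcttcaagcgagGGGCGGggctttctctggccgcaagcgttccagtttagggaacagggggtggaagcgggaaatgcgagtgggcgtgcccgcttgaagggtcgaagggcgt
Dclre1c: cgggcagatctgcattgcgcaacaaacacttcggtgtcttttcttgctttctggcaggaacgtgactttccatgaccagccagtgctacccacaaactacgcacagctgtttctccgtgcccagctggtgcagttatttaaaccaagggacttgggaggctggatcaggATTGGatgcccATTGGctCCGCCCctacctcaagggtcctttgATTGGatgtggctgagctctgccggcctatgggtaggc

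The Ku promoters shared none of the motifs searched on both strands. *Xrcc5* held 1 E-box, 198 bases before the start, a motif present in 6.02% of the 32851 promoter windows of this length, and 1 CCAAT box at 169 bases. *Xrcc6* held 3 GC boxes, the letters of which occurred in 32.7% of windows and in 7 of the 9 windows of the NHEJ genes. *Dclre1c* held 3 CCAAT boxes, at 81, 70 and 38 bases before the start, where 33.8% of windows held at least 1. The ETS core CCGGAA was found in 3 of the 9 windows and in 3952 of all 32851, and the element TGACGTCA in 0 of the 9 and in 1.55% of all. The p53 decamer was found in 0 of the 9 windows and in 7.13% of all, and a pair of adjoining decamers, the full p53 response element, in 0 of the 9 and in 0.00913% of all. The absence says only that these letters are not in the windows.

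The depth estimated from the steps of the lowest values ran from 4.74 to 11.02 M exonic reads per sample (median 8.79 M). It corresponded to about 29 reads on *Nhej1* in the sample where it was lowest and to about 2682 on *Trp53bp1* where it was highest. *Trp53* itself was still counted in *Trp53*-/- samples. It measured between 44.8 and 47.9 RPKM in mock *Trp53*+/+ and between 21.6 and 21.7 RPKM in mock *Trp53*-/- B cells, and after IR between 58.7 and 65.8 against between 40.5 and 41.8 RPKM. In non-B cells it measured between 43.4 and 49.5 against between 23.97 and 25.04 RPKM in mock samples, while after IR the genotypes overlapped, at between 35.0 and 38.6 against between 34.6 and 36.4 RPKM. The labels were therefore also checked with *Cdkn1a*, a p53 target that arrests the cell cycle, which went from a mean of 1.08 to 89.5 RPKM with IR in *Trp53*+/+ B cells and from 0.626 to 0.644 RPKM in *Trp53*-/- B cells. Of 6 p53 targets used for this check, 6 rose in *Trp53*+/+ B and 6 in *Trp53*+/+ non-B cells, whereas 0 rose and 2 fell in *Trp53*-/- B cells (limma; 3 at an unadjusted p under 0.05) and 0 changed in *Trp53*-/- non-B cells (0 at an unadjusted p under 0.05). B cell markers (8 genes) summed to between 890 and 1032 RPKM in mock *Trp53*+/+ B cells and to between 303 and 483 in the non-B cells, which thus retained B cell transcripts. Macrophage and monocyte markers summed to between 259 and 321 RPKM in mock *Trp53*+/+ B cells and to between 301 and 341 RPKM in the non-B cells. The B samples thus held transcripts of these markers too. In irradiated *Trp53*+/+ samples, olfactory and vomeronasal receptor genes, which sense odours, were detected in up to 51.3% of 1440 (B samples 1 to 4: 36.7%, 47.3%, 7.01% and 15.97%; non-B samples 1 to 4: 24.6%, 8.61%, 51.3% and 35.8%), against 5.42% to 13.1% in all other samples. Their mean level reached at most 0.309 RPKM, and the lowest value of any NHEJ gene was 4.78 RPKM. Whether what raised the detection of receptor genes also moved the values of the NHEJ genes was not tested.

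All 10 genes were expressed in every group. RPKM is scaled to gene length, so levels were set side by side, within limits. Keeping 1 read of each set of duplicates caps high values, and *Dclre1c*, *Xrcc4* and *Trp53bp1* may hold reads of the genes that overlap them. In mock *Trp53*+/+ B cells, *Polm* had the highest mean level, 26.9 ± 5.61 RPKM (SD, n = 4), and its range lay above that of each other member. *Xrcc5*, *Xrcc6*, *Trp53bp1*, *Prkdc*, *Dclre1c*, *Poll* and *Xrcc4* followed with means between 18.1 and 14.2 RPKM, and each overlapped its neighbours in this order. *Lig4* (8.96 ± 0.624 RPKM) and *Nhej1* (7.91 ± 0.766 RPKM) were lowest, below the range of *Xrcc4* and overlapping each other (SD, n = 4 each). In mock *Trp53*+/+ non-B cells, *Polm* had the highest mean, 19.7 ± 3.48 RPKM, but overlapped *Xrcc6* (17.5 ± 1.81 RPKM), and *Lig4* had the lowest, 6.68 ± 0.439 RPKM, next to and overlapping *Nhej1* (8.81 ± 1.39 RPKM; SD, n = 4 each).

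**Figure D1:**
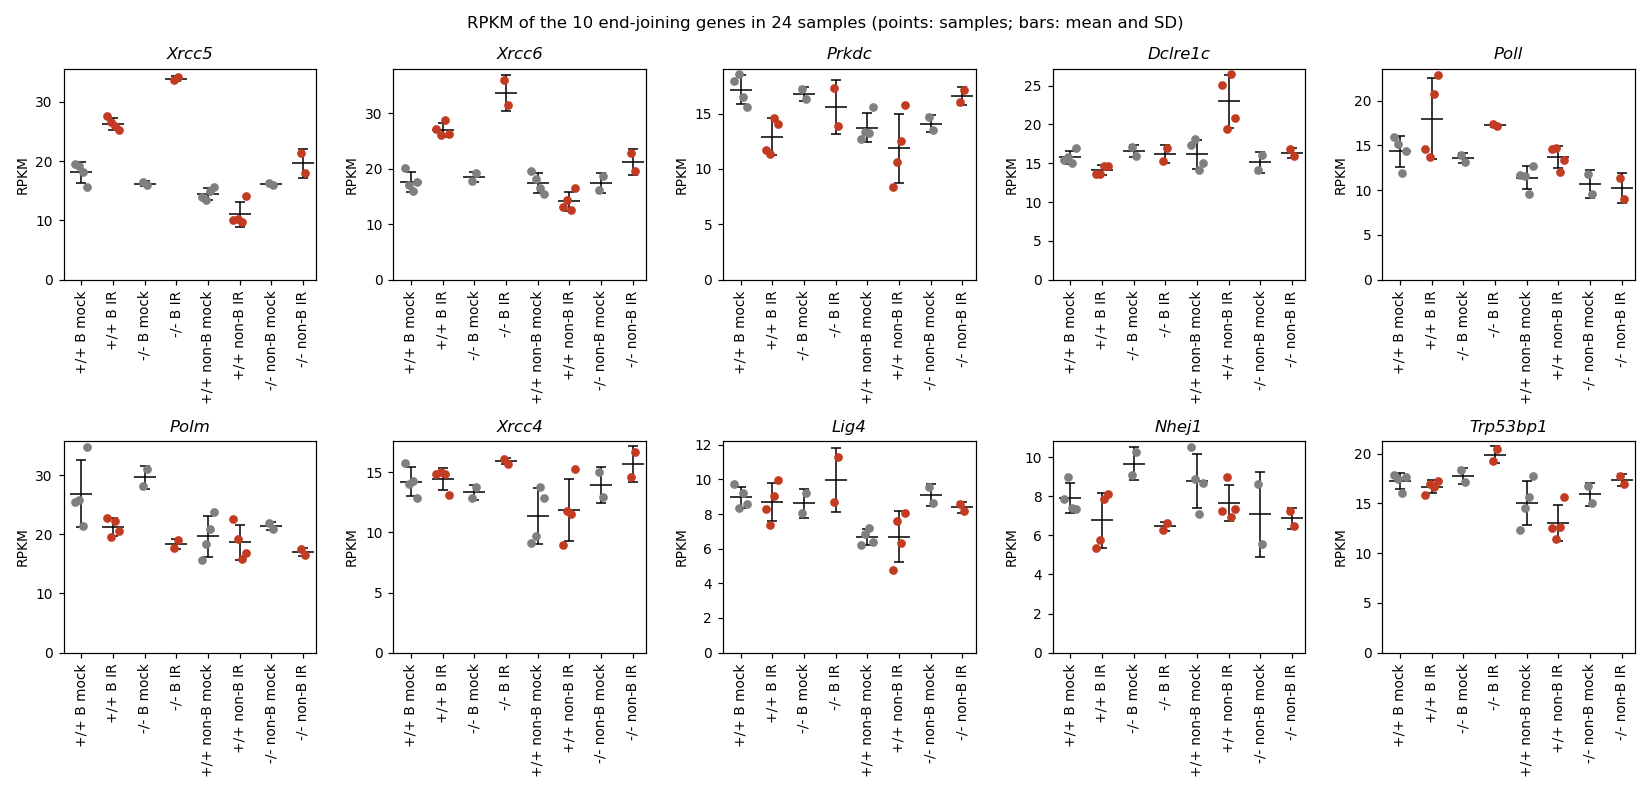
RPKM of the 10 NHEJ genes in each of the 24 samples, by genotype, cell type and treatment, with mock samples in grey and irradiated samples in red. Points are samples and black bars are the mean and SD of the group. *Xrcc5* and *Xrcc6* stand highest in irradiated B cells of both genotypes, and *Dclre1c* in irradiated *Trp53*+/+ non-B cells.

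The response to IR was tested with limma in 1 fit for each cell type, and differentially expressed genes (DEGs) were those whose adjusted p was under 0.05 and whose log2 fold change exceeded 0.58 in size. In *Trp53*+/+ B cells, 1 of the 10 NHEJ genes was a DEG, *Xrcc6*, against 24.7% of the 13821 genes tested. At any fold change, 4 of the 10 had an adjusted p under 0.05, against 51.3% of all genes, *Xrcc5* and *Xrcc6* being higher and *Prkdc* and *Polm* lower after IR. The ranges of mock and irradiated samples did not overlap for 4 of the 10, *Xrcc5* and *Xrcc6* above and *Prkdc* and *Dclre1c* below, against 46.2% of all genes. The members' median log2 fold change was -0.05, where that of all genes was 0.01. None of these shares was above that of all genes, and the differences from it were not tested.

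*Xrcc6*, the Ku70 gene, measured 20.2, 17.0, 15.9 and 17.6 RPKM in the 4 mock and 27.1, 26.0, 28.8 and 26.3 RPKM in the 4 irradiated *Trp53*+/+ B cell samples. Every irradiated sample was above every mock sample, and the log2 fold change was 0.60 (limma, standard error [SE] 0.08, adjusted p = 3.7e-05). In *Trp53*-/- B cells it rose from 17.8 and 19.2 to 35.9 and 31.4 RPKM, a log2 fold change of 0.84 (SE 0.11, adjusted p = 7.6e-05). The call in *Trp53*+/+ cells lay close to the fold threshold. It was lost when mock sample 3 (log2 fold change 0.56) or irradiated sample 3 (0.57) was left out, and with *Trp53*+/+ samples 1 and 2 alone (0.51).

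*Xrcc5*, the Ku80 gene, measured 19.5, 19.2, 18.1 and 15.6 RPKM in mock and 27.6, 26.5, 25.95 and 25.2 RPKM in irradiated *Trp53*+/+ B cells. These groups did not overlap either, with a log2 fold change of 0.53 (limma, SE 0.07, adjusted p = 5.5e-05), just under the fold threshold. Without p53, it rose in B cells from 16.5 and 15.9 to 33.6 and 34.2 RPKM, a log2 fold change of 1.04 (SE 0.10, adjusted p = 9.3e-06). These were the 2 highest *Xrcc5* values of the 24 samples.

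The difference between the genotypes was tested directly, as the response in *Trp53*-/- less that in *Trp53*+/+ cells. In B cells it passed at an adjusted p under 0.05 for 1 of the 10 genes, *Xrcc5*, against 18.8% of all genes (difference 0.51 on the log2 scale, SE 0.12, adjusted p = 0.014 by limma). For *Xrcc6* it was 0.24 (SE 0.13, adjusted p = 0.24). The *Xrcc5* difference no longer passed without mock *Trp53*-/- sample 2 (0.48) or in 1 fit over all 24 samples, with the same estimate. When irradiated B cells of both genotypes were compared, 0 of the 10 were DEGs against 17.0% of all genes (limma; 4 of the 10 at an unadjusted p under 0.05). At any fold change 3 of the 10 passed, against 38.1% of all genes, all higher in *Trp53*-/- cells, namely *Xrcc5* (log2 difference 0.36, adjusted p = 0.0065), *Xrcc6* (0.31, adjusted p = 0.021) and *Trp53bp1* (0.25, adjusted p = 0.021). In mock B cells, 0 of the 10 differed between genotypes (limma; 0 at an unadjusted p under 0.05), where 0.0506% of all genes did.

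**Figure D2:**
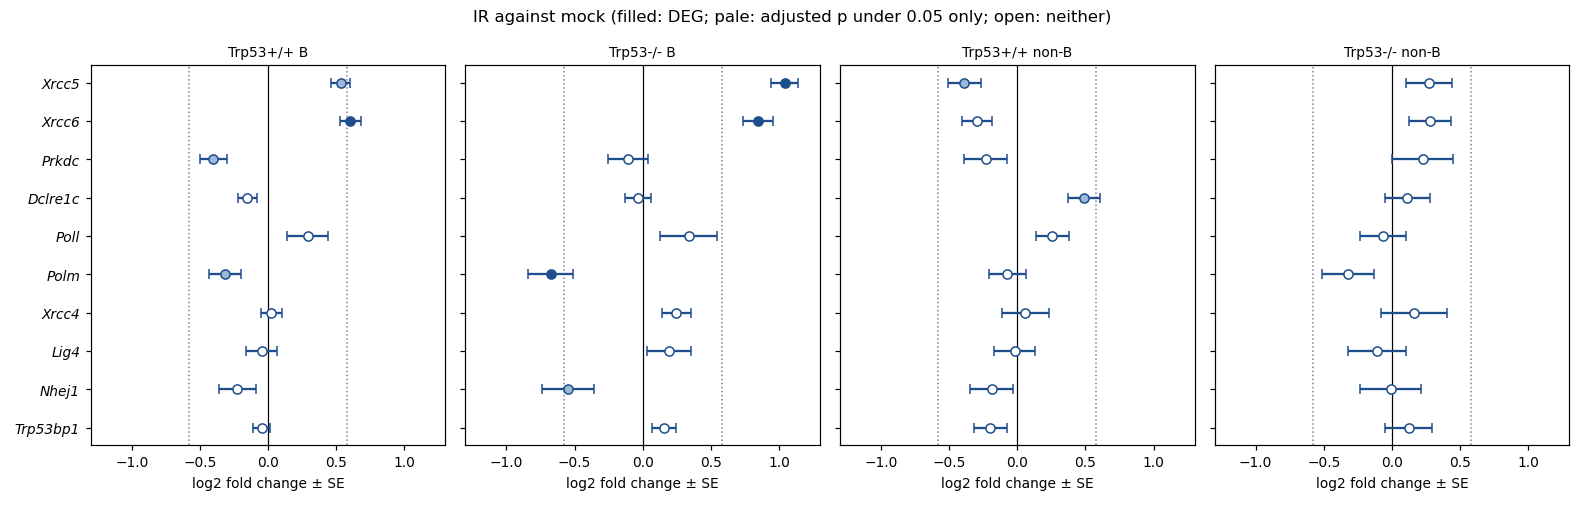
Log2 fold change of IR against mock for the 10 NHEJ genes in 4 settings, with its standard error as the bar and the 0.58 threshold as dotted lines. Filled points are DEGs, pale points have an adjusted p under 0.05 only and open points have neither. *Xrcc5* and *Xrcc6* lie to the right in both B cell panels and left of zero in *Trp53*+/+ non-B cells.

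In *Trp53*+/+ non-B cells, 0 of the 10 NHEJ genes were DEGs (limma; 3 of the 10 at an unadjusted p under 0.05), against 9.85% of the 14018 genes tested. At any fold change 2 of the 10 passed, *Xrcc5* lower and *Dclre1c* higher, against 18.7% of all genes. The ranges did not overlap for 1 of the 10, *Dclre1c*, against 22.1%. *Xrcc5* measured 13.96, 13.4, 15.01 and 15.6 RPKM in mock and 10.04, 10.2, 9.70 and 14.2 RPKM in irradiated samples, so that 3 irradiated samples were low and the fourth reached the mock range. Each was below the mock sample of its number, but the labels do not link mock and irradiated samples by number. The log2 fold change of *Xrcc5* was -0.39 (limma, SE 0.12, adjusted p = 0.044). The adjusted p was 0.027 with the replicate block and 0.0053 without irradiated sample 4 (log2 fold change -0.51), but it was not under 0.05 in 20 of the 30 alternatives and reached 0.31 with the receptor genes as a covariate. *Xrcc6* measured 19.6, 18.2, 16.5 and 15.5 RPKM in mock and 13.2, 14.4, 12.5 and 16.5 RPKM in irradiated samples, with overlapping ranges and a log2 fold change of -0.30 (SE 0.11, adjusted p = 0.078, and 0.099 with the replicate block).

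In *Trp53*-/- non-B cells, 0 of the 10 were DEGs, against 0.442% of all genes (limma; 0 of the 10 at an unadjusted p under 0.05). *Xrcc5* measured 16.3 and 16.01 RPKM in mock and 21.4 and 17.9 RPKM in irradiated samples, and *Xrcc6* measured 16.1 and 18.7 against 22.9 and 19.6 RPKM. The genotype difference of the response passed for 0 of the 10, against 7.35% of all genes (limma; 2 at an unadjusted p under 0.05). It was 0.66 for *Xrcc5* (adjusted p = 0.077) and 0.58 for *Xrcc6* (adjusted p = 0.085), both of which passed without irradiated *Trp53*+/+ sample 4 (0.78 and 0.65). In mock non-B cells, 0 of the 10 differed between genotypes, against 0.0428% of all genes (limma; 1 at an unadjusted p under 0.05, *Lig4*).

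Irradiated non-B cells differed by genotype for 1 of the 10, *Xrcc5*, against 20.6% of all genes, with a log2 difference of 0.82 (limma, SE 0.15, adjusted p = 0.0024). At any fold change 3 of the 10 passed, against 34.0% of all genes, *Xrcc5* and *Xrcc6* (0.57, adjusted p = 0.0080) higher and *Dclre1c* (-0.47, adjusted p = 0.027) lower in *Trp53*-/- cells. With the replicate block, 3 of the 10 were DEGs, *Xrcc5*, *Prkdc* and *Xrcc4*. That block joins samples of equal number across genotypes, which the labels do not link. These comparisons use the same irradiated samples as those above.

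Markers of several cell types moved with IR in *Trp53*+/+ non-B cells. The T cell markers (10 genes) summed to between 537 and 764 RPKM in mock and between 403 and 518 RPKM in irradiated samples, B cell markers to between 303 and 483 and between 200 and 399 RPKM, erythroid markers (8 measured of 10 listed) to between 159 and 402 and between 41.7 and 127 RPKM, and markers of cycling cells (10 genes) to between 139 and 462 and between 90.3 and 175 RPKM. NK cell markers (5 genes) summed to between 200 and 317 RPKM in mock and between 191 and 254 RPKM in irradiated samples. The remaining lists had higher medians after IR in these cells. Macrophage and monocyte markers summed to between 301 and 341 RPKM in mock and between 323 and 451 RPKM in irradiated samples, plasma cell markers to between 133 and 183 and between 162 and 239 RPKM, neutrophil markers to between 344 and 654 and between 414 and 706 RPKM, and platelet markers to between 68.8 and 102 and between 77.7 and 96.3 RPKM, all of which overlapped. In B cells, the cycling cell markers went from between 90.9 and 192 to between 103 and 128 RPKM in *Trp53*+/+ samples, and from between 104 and 105 to between 133 and 150 RPKM in *Trp53*-/- samples, in which the Ku genes were highest. Macrophage and monocyte markers in *Trp53*+/+ B cells went from between 259 and 321 to between 169 and 271 RPKM. Erythroid markers there went from between 70 and 149 to between 56 and 59 RPKM, and the medians of the remaining lists were lower or level. The part of these markers in the Ku and *Dclre1c* values was not tested. In a mixed population, fewer cells of a type and less RNA per cell cannot be told apart.

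B and non-B cells were then compared within *Trp53*+/+ mice. In mock samples, 0 of the 10 passed both thresholds, against 24.6% of the 14598 genes tested (limma; 6 of the 10 at an unadjusted p under 0.05), and the ranges did not overlap for 1 of the 10, *Lig4*, against 41.7%. *Lig4*, the ligase, measured between 8.34 and 9.72 RPKM in B and between 6.24 and 7.22 RPKM in non-B cells (log2 difference 0.40, SE 0.14, adjusted p = 0.030 by limma). Mock *Trp53*-/- samples, in which the cell types were not tested, overlapped for *Lig4*. It measured 8.045 and 9.22 RPKM in their B and 9.55 and 8.64 RPKM in their non-B cells. After IR, 3 of the 10 passed both thresholds, against 35.6% of all genes, and 4 of the 10 did not overlap, against 51.3%. *Xrcc5* was higher in irradiated B than non-B cells by 1.23 on the log2 scale (SE 0.11, adjusted p = 7.9e-08), *Xrcc6* by 0.92 (SE 0.10, adjusted p = 5.9e-07), and *Dclre1c* was lower (log2 difference -0.67, SE 0.10, adjusted p = 2.9e-05). The fourth, *Trp53bp1*, measured between 15.8 and 17.2 RPKM in B and between 11.4 and 15.6 RPKM in non-B cells.

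The test of the response in B less that in non-B cells passed for the same 3 of the 10 genes, against 28.0% of all genes. The difference was 0.92 on the log2 scale for *Xrcc5* (limma, SE 0.15, adjusted p = 0.00034) and 0.90 for *Xrcc6* (SE 0.14, adjusted p = 0.00018). It was -0.64 for *Dclre1c* (SE 0.14, adjusted p = 0.0035). For *Prkdc*, *Poll*, *Polm*, *Xrcc4*, *Lig4*, *Nhej1* and *Trp53bp1* the difference lay between -0.24 and 0.15, with standard errors up to 0.21. Leaving out the 5 irradiated samples with over 20% of receptor genes detected was chosen after seeing the data and leaves 1 irradiated non-B sample, assumed to vary like the other groups. The difference was then 0.97 for *Xrcc5* (adjusted p = 0.0033) and 0.90 for *Xrcc6* (adjusted p = 0.0077), and it no longer passed for *Dclre1c* (-0.36, adjusted p = 0.15).

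**Figure D3:**
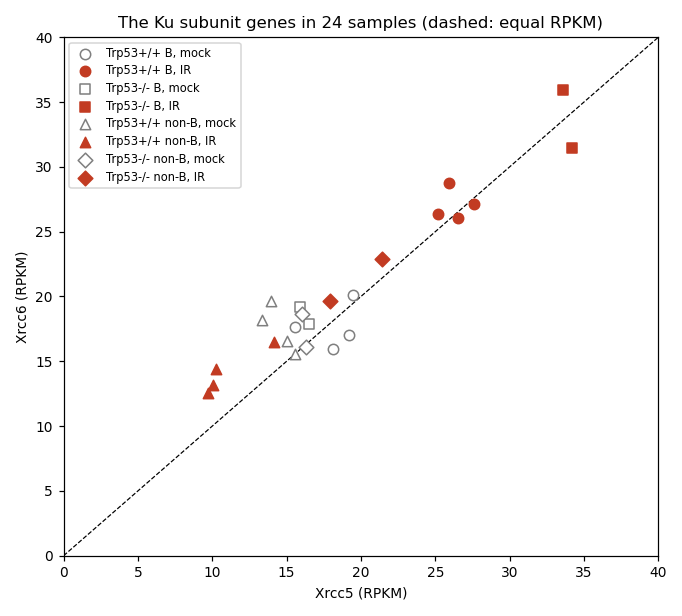
RPKM of *Xrcc6* against *Xrcc5* in the 24 samples, with open symbols for mock and red symbols for irradiated samples, and a dashed line where both are equal. Samples run along the line from irradiated *Trp53*+/+ non-B cells at the lower left to irradiated *Trp53*-/- B cells at the upper right.

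The Ku genes varied more in their sum than in their ratio. Their summed level ranged from 22.2 to 30.6 RPKM in irradiated *Trp53*+/+ non-B cells, from 33.2 to 39.6 RPKM in mock and 51.5 to 54.7 RPKM in irradiated *Trp53*+/+ B cells, and from 65.6 to 69.5 RPKM in irradiated *Trp53*-/- B cells. The log2 ratio of *Xrcc6* to *Xrcc5* lay between -0.19 and 0.49 in the 24 samples. It was between -0.03 and 0.15 in irradiated *Trp53*+/+ B cells and between 0.22 and 0.49 in irradiated *Trp53*+/+ non-B cells, which did not overlap. As a description over the 24 samples, which share 8 groups, their Pearson r on log2(RPKM + 0.5) was 0.93. The 3 genes most like *Xrcc6* among 13829 expressed genes were *Timm10* (r = 0.97), *Iars* (0.97) and *Dnajc11* (0.97), and those most like *Xrcc5* were *Utp18* (0.97), *Nol9* (0.97) and *Lrpprc* (0.97).

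*Prkdc*, the kinase that Ku recruits, was lower after IR in the *Trp53*+/+ B cells in which the Ku genes were higher. It measured 18.0, 18.6, 16.5 and 15.6 RPKM in mock and 11.7, 11.3, 14.6 and 14.1 RPKM in irradiated *Trp53*+/+ B cells. All irradiated samples lay below all mock samples, with a log2 fold change of -0.40 (limma, SE 0.10, adjusted p = 0.0056), under the fold threshold. The 2 lowest values were those of the 2 samples with the most receptor genes detected, and without both the log2 fold change was -0.25 (adjusted p = 0.062). With *Trp53*+/+ samples 1 and 2 alone it was -0.64 (adjusted p = 0.0031), and with samples 3 and 4 alone -0.16 (adjusted p = 0.30). *Trp53*-/- B cells gave 17.2 and 16.3 against 17.3 and 13.9 RPKM, and in *Trp53*+/+ non-B cells the irradiated samples spread from 8.40 to 15.8 RPKM around mock values of 12.7 to 15.6 RPKM. Its log2 fold changes in non-B cells had the sign of those of the Ku genes, at -0.23 (adjusted p = 0.32) in *Trp53*+/+ and 0.23 in *Trp53*-/- samples, neither of which passed. The log2 ratio of *Xrcc5* to *Prkdc* was between 0.00 and 0.13 in mock and between 0.83 and 1.23 in irradiated *Trp53*+/+ B cells.

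*Dclre1c*, the Artemis nuclease gene, was the member whose level was highest in irradiated *Trp53*+/+ non-B cells. It measured 17.3, 18.1, 14.1 and 15.1 RPKM in mock and 25.1, 19.3, 26.5 and 20.8 RPKM in irradiated samples. Every irradiated sample was above every mock sample, with a log2 fold change of 0.49 (limma, SE 0.12, adjusted p = 0.016), under the fold threshold. In *Trp53*-/- non-B cells it measured 14.2 and 16.05 against 16.8 and 15.9 RPKM, and in *Trp53*+/+ B cells 15.4, 15.8, 14.96 and 17.0 against 13.6, 13.6, 14.6 and 14.7 RPKM. With the replicate block the adjusted p was 0.027. The irradiated non-B samples with over 20% of receptor genes detected were samples 1, 3 and 4, and against sample 2 alone the log2 fold change was 0.26 (adjusted p = 0.38). *Suv39h2*, which overlaps *Dclre1c* on the other strand, had a log2 fold change of 0.21 (SE 0.18, adjusted p = 0.43) in these cells.

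Of the gap-filling polymerases, *Polm* fell in *Trp53*-/- B cells from 28.3 and 31.0 to 17.7 and 19.0 RPKM, a log2 fold change of -0.67 (limma, SE 0.16, adjusted p = 0.0061). In *Trp53*+/+ B cells it measured 25.6, 25.8, 21.5 and 34.8 in mock and 22.7, 19.6, 22.2 and 20.5 RPKM in irradiated samples, with overlapping ranges and a log2 fold change of -0.31 (SE 0.12, adjusted p = 0.039, which was not under 0.05 in 14 of 28 alternatives). For *Polm* the genotype difference was -0.36 (SE 0.20, adjusted p = 0.24). *Poll* measured 15.9, 15.2, 11.9 and 14.4 in mock and 14.6, 13.7, 20.7 and 22.9 RPKM in irradiated *Trp53*+/+ B cells, so that the irradiated group was split. Its 2 lower values were those of the 2 samples with the most receptor genes detected, whose part was not tested. The log2 fold change was 0.29 (SE 0.15, adjusted p = 0.12), 0.59 (adjusted p = 0.0012) without both samples, and -0.13 (adjusted p = 0.25) with *Trp53*+/+ samples 1 and 2 alone.

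In *Trp53*-/- B cells, 3 of the 10 were DEGs, *Xrcc5* and *Xrcc6* up and *Polm* down, against 24.3% of all genes, and the members' median log2 fold change was 0.17 where that of all genes was 0.02. With the same 2 samples a group, *Nhej1* had a log2 fold change of -0.55 (limma, SE 0.19, adjusted p = 0.038), from 9.08 and 10.3 to 6.29 and 6.64 RPKM. In *Trp53*+/+ B cells, *Nhej1*, the XLF gene, measured 7.89, 8.997, 7.41 and 7.34 in mock and 5.35, 5.78, 7.85 and 8.12 RPKM in irradiated samples. The log2 fold change was -0.23 (SE 0.135, adjusted p = 0.18 by limma). The lower irradiated values were those of samples 1 and 2, with 36.7% and 47.3% of receptor genes detected, whose part was not tested. Over the alternatives the log2 fold change ran from -0.56 to 0.11 and the adjusted p from 0.013 to 0.91.

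The ligation factors *Xrcc4* and *Lig4* and the chromatin factor *Trp53bp1* passed no test of the response to IR, in either genotype or cell type. *Xrcc4*, the scaffold of the ligase, measured 15.8, 14.003, 14.3 and 12.9 in mock and 14.8, 15.1, 14.9 and 13.1 RPKM in irradiated *Trp53*+/+ B cells, a log2 fold change of 0.02 (limma, SE 0.08, adjusted p = 0.81). *Lig4* had a log2 fold change of -0.05 (SE 0.11, adjusted p = 0.74) in *Trp53*+/+ B cells and of -0.02 (SE 0.15, adjusted p = 0.94) in non-B cells. *Trp53bp1* measured 17.9, 17.4, 16.1 and 17.6 in mock and 15.8, 17.0, 16.7 and 17.2 RPKM in irradiated *Trp53*+/+ B cells, with a log2 fold change of -0.05 (SE 0.06, adjusted p = 0.55). *Xrcc4* spread more in *Trp53*+/+ non-B cells, at 9.11, 9.68, 13.8 and 12.9 in mock and 8.96, 11.8, 11.5 and 15.3 RPKM in irradiated samples (adjusted p = 0.83). *Trp53bp1* in non-B cells ranged from 12.4 to 17.7 RPKM in mock and from 11.4 to 15.6 RPKM in irradiated samples (adjusted p = 0.28).

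**Figure D4:**
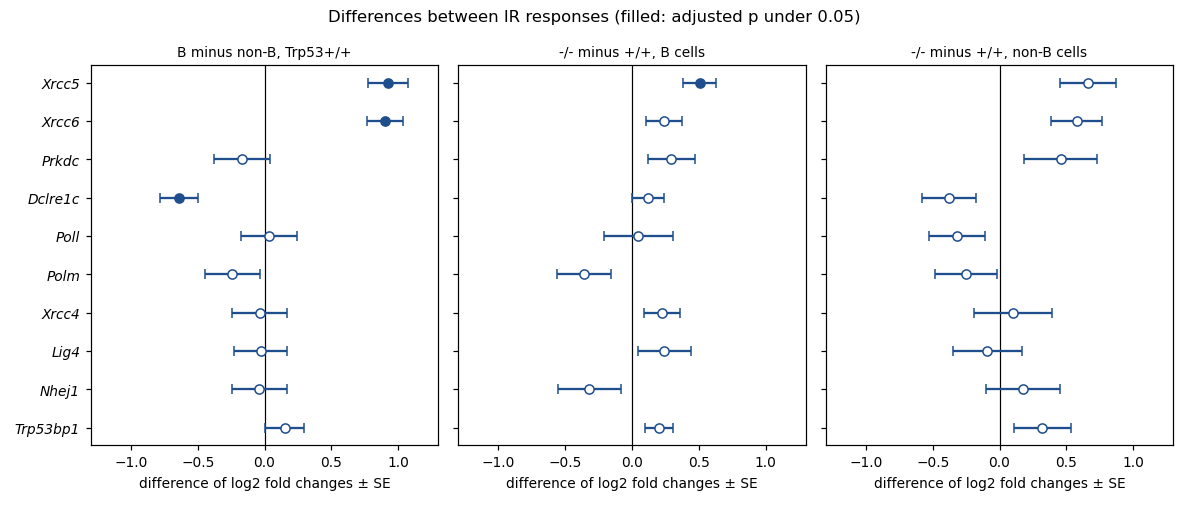
Differences between IR responses for the 10 NHEJ genes, as B minus non-B in *Trp53*+/+ samples and as *Trp53*-/- minus *Trp53*+/+ in each cell type, on the log2 scale with the SE as the bar. Filled points have an adjusted p under 0.05, namely *Xrcc5*, *Xrcc6* and *Dclre1c* for the cell types and *Xrcc5* for the genotypes in B cells.

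The wider end-joining genes were counted in lists chosen by function, against the 24.7% of all genes that were DEGs in *Trp53*+/+ B cells, 9.85% in *Trp53*+/+ non-B cells and 24.3% in *Trp53*-/- B cells. Of 8 measured NHEJ accessory factors, such as the end-processing enzymes *Aptx* and *Tdp1*, 0 were DEGs in *Trp53*+/+ B cells (limma; 6 at an unadjusted p under 0.05) and 0 in *Trp53*+/+ non-B cells (1 at an unadjusted p under 0.05), with medians of -0.11 and -0.17 on the log2 scale. Of 11 genes of the chromatin response around 53BP1, including *Atm*, *Rif1* and *Mad2l2*, 0 were DEGs in either (5 and 7 at an unadjusted p under 0.05), with medians of 0.12 and -0.27. Of 9 alternative end-joining genes, 0 were DEGs in *Trp53*+/+ B cells (4 at an unadjusted p under 0.05) and 1 in non-B cells, with medians of 0.10 and -0.37, while all genes tested had medians of 0.01 and -0.03. That gene was *Fen1*, a flap nuclease, with a log2 fold change of -0.92 (SE 0.28, adjusted p = 0.042), from between 27.9 and 62.7 to between 19.2 and 25.4 RPKM, which did not pass in 13 of 30 alternatives, among them those that left out either of mock samples 1 and 2 or any 1 of the irradiated samples. Of these 9, 3 rose in *Trp53*-/- B cells, with a median of 0.38, namely *Fen1* and, named after their values were seen, the ligase gene *Lig3* and the break sensor gene *Nbn*. In the same cells 1 of the 8 accessory factors rose (*Tdp1*, log2 fold change 0.76) and 1 of the 11 chromatin genes (*Mad2l2*, 0.84), both also named after their values were seen.

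Among 7 enzymes of V(D)J recombination and class switching, 1 of the 5 tested in B cells was a DEG in *Trp53*+/+ cells. *Rag1*, the recombinase that cuts antigen receptor genes, fell from between 1.75 and 3.09 RPKM to between 0.042 and 0.125 RPKM (log2 fold change -2.41, SE 0.28, adjusted p = 1.5e-05 by limma). *Rag1* also fell in *Trp53*-/- B cells, from between 2.83 and 6.97 to between 0.782 and 1.98 RPKM (log2 fold change -1.48, SE 0.39, adjusted p = 0.0091). In *Trp53*+/+ non-B cells *Rag1* fell by 1.41 on the log2 scale (SE 0.31, adjusted p = 0.010 by limma), from between 0.786 and 1.59 to between 0.019 and 0.137 RPKM. It was thus near the minimum of 1 RPKM already in mock samples, and its call was lost in 3 of 26 alternatives. *Ung*, the uracil glycosylase of class switching, fell in the same cells by 1.20 on the log2 scale (SE 0.17, adjusted p = 0.00087). *Ung* rose in *Trp53*-/- B cells from between 4.77 and 5.11 to between 16.3 and 17.8 RPKM, a log2 fold change of 1.69 (SE 0.17, adjusted p = 1.1e-05). These changes are on the log2(RPKM + 0.5) scale, which understates those of low genes such as *Rag1*.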

How the data were processed

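RNA-seq was available for 24 samples in 8 groups (4 *Trp53*+/+ and 2 *Trp53*-/- for each cell type and treatment). Per the methods of the study and the labels, bases of low quality were masked, reads were aligned to mm9 with TopHat (TopHat2 2.0.8 in the submitters' processing notes), 1 read of each set of duplicates was kept, which caps high values, and reads were assigned to exons with featureCounts 1.4.5. The authors deposited RPKM values, scaled to gene length and exonic reads. Counts were not used here, so that the depth is an estimate from 57.0% to 69.1% of low values within 0.1 of a whole read (20% if evenly spread), with exonic lengths for 91.1% of genes.

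Tests were run on log2(RPKM + 0.5) in limma 3.58.1 (R 4.3.3), moderated with a trend on the mean. Each cell type was fitted over its 12 samples with 4 group means, and the 16 *Trp53*+/+ samples together for cell type contrasts. Genes had an RPKM above 1 in at least 1 *Trp53*+/+ sample, which all 10 members passed, and p-values were adjusted over all genes (Benjamini-Hochberg). DEGs passed at an adjusted p of 0.05 with a log2 fold change beyond 0.58 in either direction; for differences between responses the adjusted p alone was used. Tables, motif searches and plots used Python 3.11.15. The fit was tested on simulated data. Nothing in the labels says that same-numbered samples share a mouse. Deviations of same-numbered mock and irradiated samples correlated at 0.166 to 0.339 in *Trp53*+/+ non-B cells and at 0.025 to 0.095 in *Trp53*+/+ B cells. Between cell types, same-numbered samples correlated at -0.071 to 0.361. Mock samples 2 and 3 of the *Trp53*+/+ non-B cells matched an irradiated sample of another number best. No main fit paired samples, and the replicate block was used only among the alternatives. Each p-value sets a difference between groups against the spread of samples within groups. That spread is pooled over the 4 groups of a fit and moderated across genes. For *Trp53*-/- groups of 2 samples it therefore also rests on the *Trp53*+/+ samples. Non-B cells are the flow-through of the B cell columns, so B and non-B samples may come from the same spleens, which the cell type fit did not take into account outside the replicate block.

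All 10 members are named, and of the wider lists those that were DEGs after IR in *Trp53*+/+ cells, with others counted. Not every gene that this rule names is reported here. The 10 members and the lists were chosen with earlier results of these data known. Alternatives covered pseudocounts of 0.1 and 1, filters, 2 scalings, the replicate block, receptor genes as a covariate or subtracted, 1 fit over all samples and each sample left out.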

Additional observations from a re-analysis of the deposited data

Results flagged for a closer look

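Of 40 groups of 4 *Trp53*+/+ samples (10 NHEJ genes in 4 groups), 2 held a sample far from the others by Dixon's criterion, where chance gives about 1 in 20. They are the highest *Xrcc5* value in irradiated non-B cells, 14.2 RPKM (sample 4), and the lowest *Xrcc4* value in irradiated B cells, 13.1 RPKM (sample 4).

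The responses differed between groups by a direct test in limma for several genes. For *Xrcc5*, the response to IR in B cells was larger in *Trp53*-/- than in *Trp53*+/+ samples by 0.51 on the log2 scale (adjusted p = 0.014). In *Trp53*+/+ samples the response in B cells exceeded that in non-B cells by 0.92 for *Xrcc5* and by 0.90 for *Xrcc6*, and the difference was -0.64 for *Dclre1c*.

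Among genes of the wider lists, the response in B cells was larger in *Trp53*-/- samples by 1.28 for *Ung* and by 0.74 for *Fen1*, and that in non-B cells by 1.62 for *Ung*. The cell type difference of the response was 1.62 for *Ung*, 1.14 for *Fen1* and -1.003 for *Rag1*. The part of cell composition in these differences was not tested.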

How the results depend on the processing

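Each comparison was repeated under the alternatives, and the number of the 10 NHEJ genes called moved by over 1.5 times in 28 of 353 repeats. Over the members' 3530 repeated values, 7 calls were lost and 45 gained, and 0 calls changed sign. Values that were not called did change sign, among them the response of *Poll* (-0.13 to 0.71) and *Nhej1* (-0.56 to 0.11) in *Trp53*+/+ B cells and of *Polm* (-0.44 to 0.29) in *Trp53*+/+ non-B cells. Without the fold threshold, 4 were called after IR in *Trp53*+/+ B cells and 2 in non-B cells, against 51.3% and 18.7% of all genes. By genotype, 3 were then called in irradiated B and 3 in irradiated non-B cells, against 38.1% and 34.0% of all genes. Between the *Trp53*+/+ cell types, 3 were then called in mock and 6 in irradiated samples. The share of all genes is not given for these cell type counts or for the counts below. They therefore do not set the NHEJ genes apart from other genes. *Trp53*+/+ samples 3 and 4 alone gave 3 in B and 1 in non-B cells. Of the sets chosen after seeing the data, that without the 5 samples with many receptor genes gave 2 after IR in *Trp53*+/+ B cells, 2 for their genotype difference and 2 in irradiated non-B cells by genotype, and that without non-B controls 1 and 2 gave 1 in *Trp53*+/+ non-B cells. In 1 fit over 24 samples, the genotype difference was called for 0 in B and 2 in non-B cells. In irradiated non-B cells by genotype, a pseudocount of 0.1 gave 2, receptor subtraction 2 and the replicate block 3. Quantile normalization called 1 between mock cell types (*Lig4*). With 1 sample left out, the counts ran from 0 to 1 after IR in *Trp53*+/+ B cells, from 0 to 2 for the genotype difference in B and in non-B cells, and from 1 to 3 by genotype in irradiated non-B cells. The replicate block moved no other count by over 1.5 times. Since the *Trp53*-/- non-B samples correlated at -0.263, their numbers were also crossed in the replicate block, which called 1 for the genotype difference and 3 by genotype in irradiated non-B cells. The causes were not tested. Scaling moved the median of all genes by at most 0.091. Depth limits *Nhej1* most, at about 29 reads in its lowest sample.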
